A study of Mus musculus with 5 samples.

Results

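The cytosolic ribosomal protein genes were followed through 5 droplet libraries of the mouse dentate gyrus area, a hippocampal region that takes part in memory. Members were the gene rows whose symbol begins with Rpl or Rps and a digit, together with Rplp0, Rplp1, Rplp2 and Rpsa. Rows with -ps in the symbol and the Rps6k kinase genes were left out. The rule gave 97 of the 78334 gene rows, under 96 symbols, because Rpl37rt stands on 2 rows. By function, 31 rows code for proteins of the small 40S subunit and 46 for proteins of the large 60S subunit, and these 77 are called core members here. The others were 8 diverged paralogs (Rpl3l, Rpl7l1, Rpl10l, Rpl22l1, Rpl36al, Rpl39l, Rps4l and Rps27l), 11 copies of a core gene, such as Rpl35rt and Rps27rt, and Rps19bp1, which codes for a binding partner of Rps19 and not for a ribosomal protein. The rule does not take in Fau and Rack1, which also code for parts of the ribosome.

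Whole cells, freed with collagenase and passed through a step that lyses red cells, made up part 1 of the study, and part 2 worked with nuclei taken from frozen tissue. In part 1, where both groups have the genotype label WT, CFC-14d came from mice 14 days after contextual fear conditioning, in which a chamber is paired with foot shock, and Random-14d from mice 14 days after random foot shocks. In part 2, WT-naive came from untrained wild-type mice, WT-CFC from wild-type mice 14 days after conditioning, and KO-CFC from mice 14 days after conditioning whose title names a Csf2rb2 knockout and whose genotype entry names Csf2rb3-KO. Each group had 10 mice and 1 library, and no source used here says how the mice were combined. With 1 library per group no difference could be tested: intervals below cover counting error only, and a difference between libraries may be one of animals, preparation or run. Levels are counts per 1000000 UMIs (CPM) of a library or class with 95% Poisson intervals, and shares carry exact Clopper-Pearson 95% intervals.

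Each ribosome holds 1 copy of almost every ribosomal protein, so cells make these proteins in nearly equal amounts, from mRNAs that are among the most abundant of the cytoplasm. Many of these mRNAs begin with a C followed by a run of pyrimidines, the 5' terminal oligopyrimidine (TOP) motif, through which mTORC1 and LARP1 control their translation. Neurons keep ribosomal protein mRNAs in the soma and in dendrites, and nuclei hold mainly transcripts that have not yet been exported. A few paralogs replace a core protein in part of the ribosomes of some tissues, for example Rpl39l in the testis and Rpl3l in striated muscle.

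The start sites of the members on which the results below turn are shown with 10 bases before and 20 bases from the RefSeq transcript start, build GRCm38.p6, 5' to 3', with the pyrimidine run that begins at the start site in capitals. The first 3 compare Rps27 with its near-identical copy and its diverged paralog, and the rest are core genes and 1 paralog that stood at an end of a comparison between libraries.
Rps27 (chr3:90213629-90213658, minus strand): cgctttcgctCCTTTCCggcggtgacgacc
Rps27rt (chr9:114982720-114982749, minus strand): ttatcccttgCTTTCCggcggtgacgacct
Rps27l (chr9:66946076-66946105, plus strand): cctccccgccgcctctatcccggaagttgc
Rpl35 (chr2:39005112-39005141, minus strand): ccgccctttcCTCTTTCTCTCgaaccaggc
Rpl38 (chr11:114668570-114668599, plus strand): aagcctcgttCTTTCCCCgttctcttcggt
Rps21 (chr2:180257369-180257398, plus strand): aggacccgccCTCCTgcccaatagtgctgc
Rps10 (chr17:27635225-27635254, minus strand): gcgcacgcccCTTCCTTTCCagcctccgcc
Rpl41 (chr10:128549149-128549178, minus strand): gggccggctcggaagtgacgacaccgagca
Rplp0 (chr5:115559457-115559486, plus strand): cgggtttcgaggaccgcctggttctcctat
Rpl10 (chrX:74270806-74270835, plus strand): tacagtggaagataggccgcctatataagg
Rpl36al (chr12:69184048-69184077, minus strand): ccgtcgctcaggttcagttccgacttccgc

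The RefSeq table matched 69 of the 96 symbols, with 81 starts. A C at the start followed by at least 4 pyrimidines, read on the gene's strand, stood at 15 of the 81 starts (18.5%) and at 823 of all 32851 starts in the table (2.51%). Among core members it was 13 of 67 starts, and among mitochondrial ribosomal protein genes 0 of 75. Rps27 and Rps27rt both begin with such a run, as do Rpl35, Rpl38, Rps21 and Rps10, while the listed starts of Rps27l, Rpl41, Rplp0, Rpl10 and Rpl36al do not. A start listed by RefSeq can lie a few bases from the start used in a given cell type, so a window without the run says only that these letters are not at the listed base.

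The 5 libraries differed in depth and in kind. After filters, 28564 cells of CFC-14d, 26524 of Random-14d and 9907, 12019 and 7736 nuclei of WT-naive, WT-CFC and KO-CFC held between 30946626 and 106409739 UMIs per library. The nuclear libraries were rich in Malat1, a nuclear RNA, at 137045 to 179623 CPM of the deposited UMIs against at most 8687 CPM in cells. The library labelled KO-CFC stood apart: Csf2rb2 RNA was present at 9.67 CPM, against 14.4 and 17.6 CPM in WT-naive and WT-CFC, and it held 641 CPM of Xist and 460 CPM of the immunoglobulin gene Igkc, against at most 2.94 and 0.0146 CPM in the other 2 nuclear libraries. CFC-14d and Random-14d shared 282 barcodes, and no other pair more than 32.

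Ribosomal protein transcripts took a far larger share of the RNA of cells than of the RNA of nuclei. The share of UMIs on members was 6.02% (6.014 to 6.023) in CFC-14d and 5.44% (5.433 to 5.442) in Random-14d. In nuclei it was 0.480% (0.478 to 0.482) in WT-naive, 0.629% (0.627 to 0.631) in WT-CFC and 1.25% (1.246 to 1.253) in KO-CFC. Every nuclear library lay below both cell libraries, and KO-CFC was the highest of the nuclear ones. Haemoglobin transcripts took 4.31% and 7.76% of the UMIs of CFC-14d and Random-14d. With them left out of the total, the 2 cell libraries were at 6.29% and 5.89%.

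Core members spanned a wide range within a library, although their proteins are made in nearly equal amounts. In CFC-14d they ran from 103.4 CPM for Rpl13a to 1996 CPM for Rpl41, with a median of 721 CPM, and in WT-CFC from 13.0 CPM for Rpl13a to 210.1 CPM for Rps29, with a median of 72.6 CPM. Reads here come from the 3' end of a transcript, so a level is not divided by length, and the order of genes also depends on how well each 3' end is captured. Rpl13a was the lowest core member in all 5 libraries. The highest was Rpl41, the shortest ribosomal protein, in CFC-14d and WT-naive, Rplp1 of the acidic P stalk in Random-14d, and Rps29 in WT-CFC and KO-CFC. The 40S genes together held 41.3% to 43.1% of core UMIs in every library, so the balance between subunits was nearly the same in cells and in nuclei.

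The 3 genes of the P stalk, the flexible arm that recruits elongation factors, were not equal. In the 2 cell libraries, CFC-14d first, and then the nuclei of WT-naive, WT-CFC and KO-CFC, Rplp1 was at 1850, 1664, 140.3, 201.1 and 290.6 CPM. Rplp2 was at 863, 761, 79.2, 106.3 and 190.5 CPM, and Rplp0, which anchors the other stalk proteins, at 634, 605, 33.1, 35.3 and 114.7 CPM. Rplp1 was the highest of the stalk genes and Rplp0 the lowest in all 5 libraries.

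The order of core members was close to the same within a part and looser between cells and nuclei. Across the 77 core genes, which are not independent replicates, Spearman's rho was 0.99 between CFC-14d and Random-14d, 0.97 between WT-naive and WT-CFC, and 0.91 between WT-CFC and KO-CFC. Between a cell and a nuclear library it ran from 0.55 to 0.65. Of the other members, 4 rows had no UMI in any library (Rpl10l, Rps12l1, Rpl32l and 1 of the Rpl37rt rows), and 3 UMIs over a library, the most that a count of 0 allows, correspond to 0.0282 CPM in CFC-14d and 0.0969 CPM in KO-CFC.

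Among cells, lymphocyte-like and monocyte-like classes carried the largest share of ribosomal protein UMIs, while neutrophil-like cells, which are also myeloid blood cells, were among the lowest. Classes were named from marker genes with ribosomal protein genes left out of the clustering, and are called X-like because they were rebuilt here and not taken from the study. T or NK cell-like cells stood highest, at 18.4% (18.3 to 18.5) in CFC-14d and 17.6% (17.5 to 17.6) in Random-14d. B cell-like cells were at 12.5% and 12.7% and monocyte-like cells at 12.4% and 12.5%, and in CFC-14d the intervals of these classes overlapped. Proliferating progenitor-like cells, a cluster of dividing cells led by cell cycle genes such as Top2a and Mki67 for which the monocyte list was second in score, were at 10.3% and 9.08%. Neuroblast-like cells, the immature neurons of the neurogenic niche, were at 8.85% and 8.97%. Neutrophil-like cells were at 5.09% and 4.00% in CFC-14d and Random-14d.

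Most brain-resident, vascular and epithelial classes lay lower, with border macrophage-like cells level with the neuroblast-like ones. Microglia-like cells were at 6.40% in CFC-14d and 6.04% in Random-14d, endothelial-like cells at 7.09% and 6.52%, and border macrophage-like cells at 9.0% and 8.24%. Choroid plexus epithelial-like cells were at 5.59% and 4.95%, astrocyte-like cells at 4.56% and 4.15% and oligodendrocyte-like cells at 4.58% and 4.45%. The ranges of astrocyte-like and oligodendrocyte-like cells over the 2 libraries overlap, so the order of these classes is not fixed. Erythroid-like cells were lowest at 2.00% and 1.45%, with haemoglobin at 70.1% and 75.7% of their UMIs, and at 6.66% and 5.98% of what was left without haemoglobin.

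**Figure D1:**
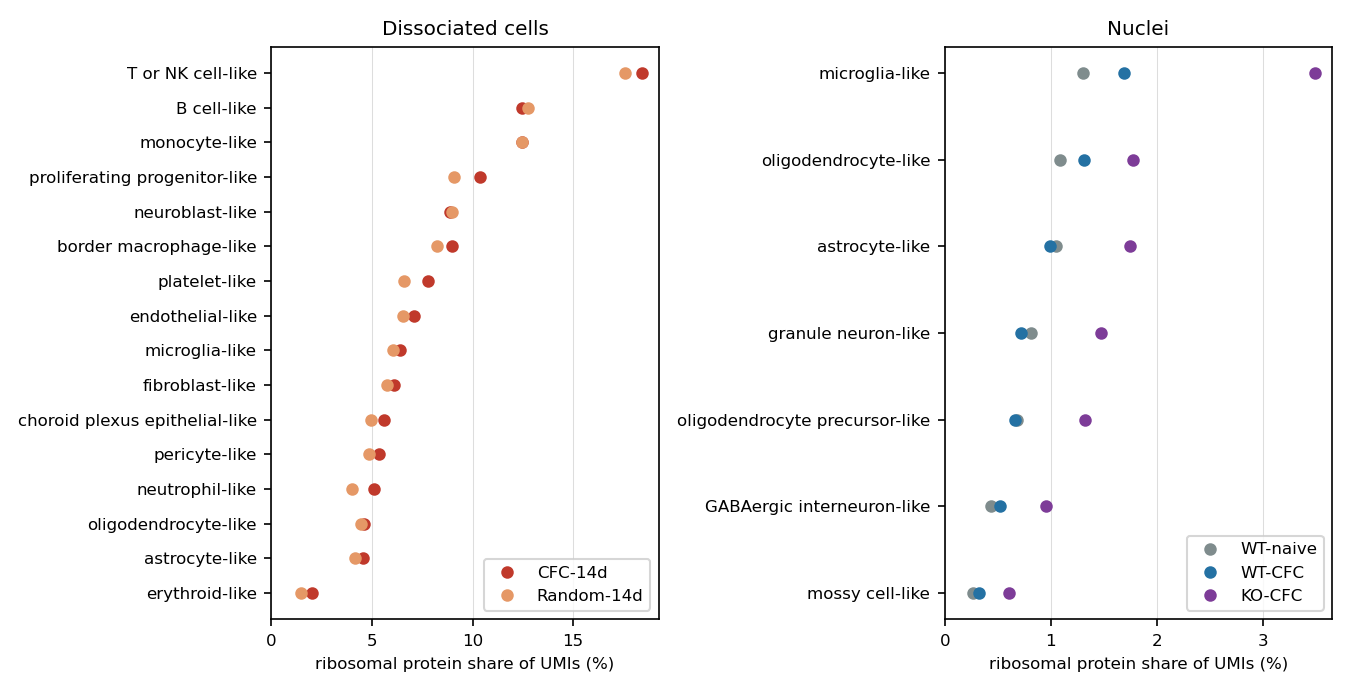
Percent of UMIs on ribosomal protein genes (x axis) by class (y axis), in dissociated cells on the left and nuclei on the right, with 1 point per library and separate scales. T or NK cell-like cells lie above 17% in both cell libraries, and KO-CFC is the rightmost nuclear library in each of the 7 classes found in all nuclear libraries.

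T or NK cell-like cells were also highest among cells of like depth. In barcodes of 1500 to 3000 UMIs, a window chosen after the difference in depth had been seen, T or NK cell-like cells held 22.3% and 23.5% in CFC-14d and Random-14d, neuroblast-like cells 8.34% and 8.59% and microglia-like cells 6.27% and 6.04%. B cell-like cells, at 19.2% and 16.2%, lay further above monocyte-like cells, at 11.7% and 12.6%, than over all barcodes.

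Classes were not uniform inside. Among border macrophage-like cells, a cluster led by H2-Eb1, H2-Aa and other genes of MHC class II, which present antigen, and for which the dendritic cell list was second in score, held 13.6% in CFC-14d and 13.2% in Random-14d, against 6.02% and 5.66% in the deepest cluster of that name. Among microglia-like cells, the cluster led by Tmem119 and P2ry12, markers of resting microglia, held 6.13% and 5.81%, and the cluster led by Ccl4, Atf3 and Il1a, genes of stimulated microglia, 6.54% and 6.23%. A small cluster led by interferon-induced genes held 8.32% in CFC-14d. Clusters of one name also differed in depth, in no single direction. Choroid plexus epithelial-like cells with a median of 783 UMIs in CFC-14d held 8.39% there, with 6.86% mitochondrial UMIs, and those with a median of 28712 UMIs held 4.72%, with 2.07%. Neuroblast-like cells with a median of 1035 UMIs held 8.31%, and those with a median of 3690 UMIs 9.47%. The part of depth and mitochondrial RNA in the class shares was not tested.

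Nuclei gave a different set of classes. Of those found in all 3 nuclear libraries, microglia-like nuclei stood highest and mossy cell-like nuclei lowest. Microglia-like barcodes lay above oligodendrocyte-like and astrocyte-like ones in cells and in nuclei. Mossy cell-like nuclei, which are hilar excitatory neurons, held 0.265%, 0.323% and 0.604% in WT-naive, WT-CFC and KO-CFC, and GABAergic interneuron-like nuclei 0.439%, 0.522% and 0.953%. Oligodendrocyte precursor-like nuclei held 0.68%, 0.657% and 1.33%, and granule neuron-like nuclei, the principal neurons of the dentate gyrus, 0.810%, 0.716% and 1.48%. Astrocyte-like nuclei held 1.05%, 0.992% and 1.75%, oligodendrocyte-like nuclei 1.09%, 1.31% and 1.78%, and microglia-like nuclei 1.30%, 1.69% and 3.49%. The order was the same in all 3 libraries. T or NK cell-like nuclei were found almost only in KO-CFC, where 242 of them held 4.83%, so in nuclei as in cells this class had the largest share of the library.

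Many nuclei could not be named: 58.3%, 62.5% and 43.8% in WT-naive, WT-CFC and KO-CFC, against 1.70% and 1.47% of cells in CFC-14d and Random-14d. The largest deep unnamed cluster, led by Trhde and Hs3st4 with no named class that its leading genes support, held 0.290% in 2562 nuclei of WT-naive and 0.340% in 1735 of WT-CFC, close to the mossy cell-like nuclei.

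The share and the count per nucleus gave different orders. Mossy cell-like nuclei of WT-naive had a median of 11239 UMIs and astrocyte-like nuclei one of 1688. Counted per nucleus, members gave 39.4 UMIs in granule neuron-like, 32.6 in mossy cell-like and 31.2 in GABAergic interneuron-like nuclei of WT-naive. In glia they gave 21.4 in oligodendrocyte-like, 18.7 in astrocyte-like, 17.0 in oligodendrocyte precursor-like and 16.2 in microglia-like nuclei. These neuron-like classes, all below the 3 highest in share, thus had more ribosomal protein UMIs per nucleus than any glial class. In nuclei of 1500 to 3000 UMIs, the share in WT-naive was 1.06% in granule neuron-like, 0.951% in astrocyte-like, 1.14% in microglia-like and 0.724% in oligodendrocyte precursor-like nuclei.

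Individual members took unequal parts of the total in different cells. For each class of cells, a member's UMIs were expressed per 10000 ribosomal protein UMIs, which sets the class's overall share aside. Of 86 members with enough counts, the highest and the lowest class differed at least 2-fold for 15, and the median ratio was 1.61. The widest spreads belonged mostly to paralogs, and core genes followed.

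Rps4l, an autosomal relative of the X-linked 40S gene Rps4x, varied most, at 20.0-fold. It stood at 31.1 per 10000 in pericyte-like cells of CFC-14d and 31.5 in those of Random-14d, and at 15.7 and 17.4 in endothelial-like cells. In choroid plexus epithelial-like cells it was at 1.6 (1.47 to 1.74) and 1.53 (1.39 to 1.69). On the CPM scale the same contrast was 165 (146 to 187) and 152 (136 to 169) CPM in pericyte-like cells against 8.96 and 7.59 CPM in choroid plexus epithelial-like cells. Both libraries put the vascular classes far above the epithelium.

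Rps27l, a p53-responsive relative of Rps27, had the next widest spread, 5.65-fold, with the epithelium at the top. It stood at 83.6 and 101.0 per 10000 in choroid plexus epithelial-like cells and at 17.6 and 15.1 in T or NK cell-like cells of CFC-14d and Random-14d. Rpl7l1, which acts in assembly of the large subunit, was at 18.5 and 20.2 in microglia-like and at 4.54 and 3.32 in T or NK cell-like cells. Rps19bp1 spread 4.43-fold, from 2.34 in T or NK cell-like to 10.4 in oligodendrocyte-like cells, as means of both libraries. Rpl22l1 stood at 47.2 and 58.2 in choroid plexus epithelial-like and at 18.5 and 23.0 in monocyte-like cells, and Rpl36al at 17.4 and 21.7 in platelet-like and 7.89 and 7.92 in T or NK cell-like cells. A part is relative to all ribosomal protein UMIs, so a small part in T or NK cell-like cells, where that total was largest, need not be a low CPM.

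Of the core genes, Rpl41 differed most, at 3.18-fold, from 433.5 and 410.4 per 10000 in choroid plexus epithelial-like cells to 140.8 and 124.3 in monocyte-like cells. Rpsa, a 40S protein also known as the laminin receptor, was highest in oligodendrocyte-like cells, at 213.1 and 208.5 per 10000, and lowest in choroid plexus epithelial-like cells, at 91.1 and 81.5. Oligodendrocyte-like nuclei also had 179.0, 186.4 and 179.1 per 10000 Rpsa in WT-naive, WT-CFC and KO-CFC, and were the highest of the nuclear classes when the 3 libraries were averaged.

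**Figure D2:**
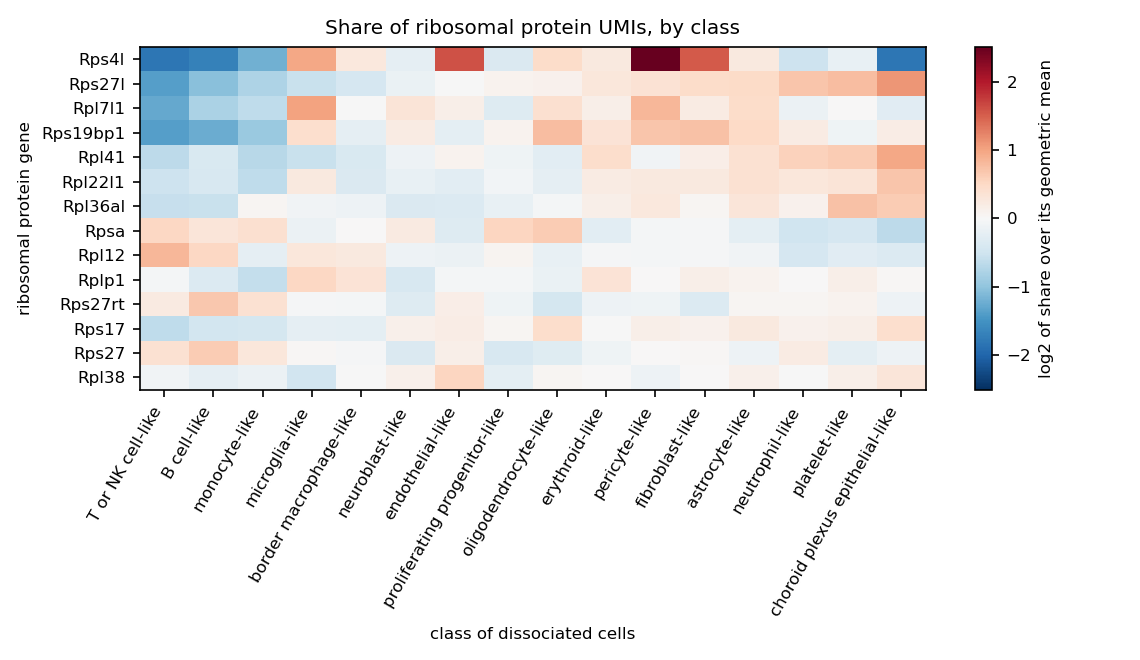
The 14 members with the widest spread (y axis) over 16 classes of dissociated cells (x axis). Colour gives the log2 of the member's share of ribosomal protein UMIs over its geometric mean across classes. Shares are means of CFC-14d and Random-14d. Rps4l is highest in pericyte-like and lowest in choroid plexus epithelial-like cells, where Rps27l and Rpl41 are highest.

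Nuclei were more even. Over the 7 nuclear classes the median ratio was 1.29 for 84 members, and 3 differed at least 2-fold: Rps4l (2.64-fold), Rpl7l1 (2.39-fold) and Rps19bp1 (2.01-fold), each highest in mossy cell-like nuclei. Rpl41, with the widest spread of the core genes in cells, spread 1.43-fold in nuclei. The number of classes and the counts per class differ between the parts, and smaller counts widen a ratio, so the ratios of the 2 parts are not on one footing.

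Paralogs and their parents were split differently in cells and nuclei. Rps27l made up 38.3% (38.0 to 38.6) of the UMIs of Rps27 and Rps27l in CFC-14d and 41.2% in Random-14d, and 11.1%, 9.21% and 11.9% in WT-naive, WT-CFC and KO-CFC. Rpl7l1 went the other way, with 8.60% and 9.78% of its pair with Rpl7 in cells and 37.4%, 34.2% and 28.2% in nuclei. Rpl22l1, which can take the place of Rpl22, had 34.9% and 38.1% in cells and 50.6%, 51.6% and 44.6% in nuclei. For each of these 3 pairs the ranges of the cell and nuclear libraries did not overlap.

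The library labelled KO-CFC stood apart from the other nuclei for Rpl36al and Rps4l, as it did for Rpl7l1 and Rpl22l1 above. Rpl36al made up 17.1% and 18.8% of its pair with Rpl36a in cells, 26.2% and 25.6% in WT-naive and WT-CFC, and 38.0% (36.6 to 39.4) in KO-CFC. Rps4l made up 3.96% and 5.06% of its pair with Rps4x in cells, 13.4% and 11.3% in WT-naive and WT-CFC, and 6.58% (5.96 to 7.24) in KO-CFC. The other 2 paralogs with UMIs were rare. Rpl39l had 116 and 146 UMIs in cells and 0, 0 and 1 in nuclei, and Rpl3l was under 1 CPM in every library.

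Copies that are nearly identical to their parent over the aligned bases were split in another way. In GENCODE M21 transcripts, Rpl35rt matched Rpl35 at 99.6% of 445 aligned bases, Rpl37rt matched Rpl37 at 99.7% of 344 and Rps27rt matched Rps27 at 100% of 341. How a read is divided between copy and parent is therefore uncertain. The aligned bases were 100%, 50.4% and 91.2% of the copy's transcript. Transcripts were joined by symbol, so for Rpl37rt the match is not tied to 1 of its 2 rows. Rpl35rt took 19.1% (18.7 to 19.5) and 21.9% (21.3 to 22.4) of its pair in CFC-14d and Random-14d, 30.9% (28.7 to 33.2) in WT-naive, 6.36% (5.56 to 7.24) in WT-CFC and 4.01% (3.43 to 4.66) in KO-CFC. Rpl37rt took 4.27%, 4.91%, 5.00%, 1.68% and 1.04% in the same order, and Rps27rt 7.37%, 8.25%, 5.41%, 2.96% and 2.5%. All 3 copies had a smaller part in WT-CFC and KO-CFC than in WT-naive and in both cell libraries.

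The difference was present in every named class of nuclei. Rpl35rt took 26.3% to 36.8% of its pair over the 7 classes of WT-naive, 4.49% to 10.5% over those of WT-CFC and 3.34% to 5.77% over those of KO-CFC. Rpl37rt and Rps27rt also took a smaller part in WT-CFC than in WT-naive, and in KO-CFC than in WT-naive, in 7 of 7 classes. Over whole libraries, Rpl37rt had only 329, 166 and 102 UMIs in WT-naive, WT-CFC and KO-CFC, and Rps27rt 200, 136 and 107. The class range of Rps27rt in WT-naive, 4.69% to 9.60%, overlapped those of WT-CFC (1.63% to 5.43%) and KO-CFC (0% to 4.75%). The ranges of Rpl37rt did not overlap in this way. CFC-14d and WT-CFC carry the same genotype and training labels but were prepared differently, and Rpl35rt took 19.1% and 6.36% of its pair in them. What sets the libraries apart was not tested.

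**Figure D3:**
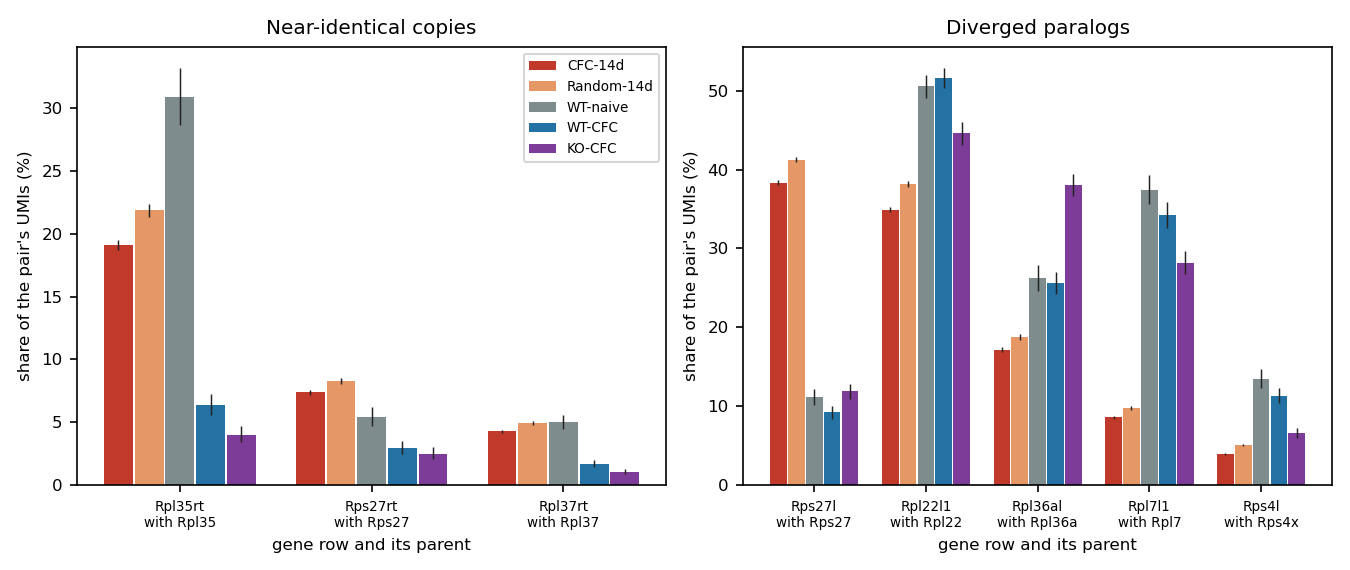
Percent of a pair's UMIs on the copy or paralog (y axis), with 1 bar per library and exact 95% intervals. On the left of the x axis are 3 copies near-identical to their parent over the aligned bases, and on the right 5 diverged paralogs. Rpl35rt reaches 30.9% in WT-naive and 4.01% in KO-CFC, and Rps27l lies near 40% in both cell libraries and near 10% in the 3 nuclear ones.

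Nuclei of WT-CFC were set against cells of CFC-14d, both labelled wild type at 14 days after conditioning, although preparation, kit and run differ together and cannot be told apart. All 89 members with at least 100 UMIs over both libraries were at least 1.5-fold lower in nuclei, as were 29.7% of 22715 genes. The members' median log2 ratio was -3.29, which is 9.79-fold lower, against 1.005 over all genes. The ratio was nearest to 0 for Rpl7l1 at -1.62, Rps4l at -1.71, Rpl6 at -1.92 and Rps29 at -1.93. Rps29 was at 799 CPM in cells and 210.1 in nuclei, and Rpl6 at 492 and 130.0 CPM.

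The members that differed most were not the most abundant ones. Rps27l was at 377 (373 to 381) CPM in cells and 8.09 (7.37 to 8.88) in nuclei, a log2 ratio of -5.54. Rps16 was at 1253 and 55.9 CPM (-4.49) and Rpl10 at 863 and 43.8 CPM (-4.30). Rpl39l had no UMI in WT-CFC. Members of both subunits were thus spread over more than 3 log2 units around a common difference.

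**Figure D4:**
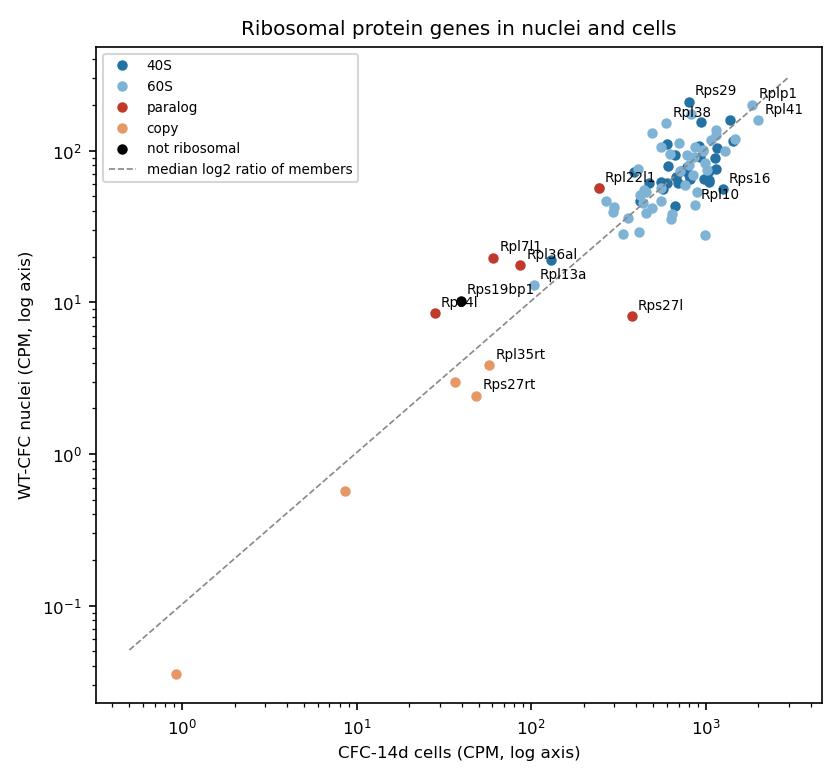
Level of each member in WT-CFC nuclei (y axis, CPM, log scale) against CFC-14d cells (x axis, CPM, log scale), coloured by kind of member, with a dashed line at the members' median log2 ratio of -3.29; members with no UMI in WT-CFC are not drawn. Rps27l lies far below the line, and Rpl7l1 and Rps29 above it.

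The difference held within each class found in both parts. The median log2 ratio was -2.24 in astrocyte-like, -2.01 in microglia-like and -1.85 in oligodendrocyte-like barcodes, against 0.43, 0.24 and -0.05 over all genes tested there. At least 1.5-fold lower were 80 of 80 members in astrocyte-like barcodes (27.2% of genes), 84 of 87 in microglia-like (28.4%) and 79 of 82 in oligodendrocyte-like (36.6%). Over these 3 classes Rpl35 ran from -1.06 to -0.36 and Rps27l from -4.15 to -2.94. Mitochondrial ribosomal protein genes, which serve the other ribosome of the cell and are no members, had a median of -1.80 over all barcodes. Elongation factors and other TOP genes had one of -2.11, with 15 of 18 at least 1.5-fold lower, while Eef1a2, the elongation factor of neurons, was at 7.76. Most dissociated cells were not neurons, and the part of the mix of classes in these values over all barcodes was not tested.

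Between CFC-14d and Random-14d most members were slightly higher in CFC-14d, and none reached 1.5-fold. Of 90 members with at least 100 UMIs, 82 were higher in CFC-14d, where 61.4% of 18311 genes were. The members' median log2 ratio was 0.13 and that of all genes 0.05. Over all barcodes, another mix of classes and another level within a class cannot be told apart. No member was 1.5-fold higher, as 1.69% of genes were, and none was 1.5-fold lower, as 1.09% were. Beside this difference, haemoglobin took more of Random-14d and mitochondrial genes more of CFC-14d (2.58% against 2.15% of UMIs), and their part in the result was not tested; scaled without ribosomal protein, mitochondrial and haemoglobin genes, the median was 0.09.

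Short proteins of both subunits led. Rpl39 was at 713 (708 to 718) CPM in CFC-14d and 542 (537 to 546) CPM in Random-14d, a log2 ratio of 0.40. Rps21 was at 941 and 716 CPM (0.40), Rpl38 at 594 and 456 CPM (0.38) and Rpl41 at 1996 and 1538 CPM (0.38). Of the 79 members tested in all 16 classes, 15 were higher in CFC-14d in each of them, against 4.41% of genes, and these 4 were among the 15, as were Rpl10, Rpl37 and Rps29 and longer genes such as Rps2, Rpl7 and Rps4x. At the other end were 3 scarce copies or paralogs with few UMIs, Rpl27rt at -0.47, Rpl39l at -0.38 and Rpl6l at -0.21, and Rps4l at -0.20. Rps10 was higher in CFC-14d in only 4 of 16 classes.

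The ratio followed coding length. Across the 77 core genes, whose coding sequences run from 138 to 1257 bases, Spearman's rho between coding length and log2 ratio was -0.50, and across 13950 genes it was 0.06. The 25 shortest core genes, of up to 405 bases, had a median of 0.26 and the 25 longest, of at least 588 bases, one of 0.13. The rho was below 0 in all 16 classes, from -0.53 in endothelial-like to -0.09 in neutrophil-like cells. These genes share their libraries and their class of short transcripts, so the values describe this pair of libraries.

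By class, the members' median was above 0 in 14 of 16, and above that of all genes in 11. It ran from -0.03 in neuroblast-like to 0.45 in erythroid-like cells, where 15 of 86 members were 1.5-fold higher (13.6% of genes) and all genes had a median of 0.31. Haemoglobin took different parts of these erythroid-like cells in the 2 libraries, as given above, and scaled without ribosomal protein, mitochondrial and haemoglobin genes their median was 0.17, below those of neutrophil-like (0.47) and platelet-like (0.29) cells. In neutrophil-like cells it was 0.43, with 17 of 80 members 1.5-fold higher against 29% of genes, and those of the 2 libraries lay mostly in different clusters. In platelet-like cells it was 0.23, in microglia-like and in T or NK cell-like cells 0.08, and in B cell-like cells 0.0087. Choroid plexus epithelial-like cells, the class with the most UMIs in both libraries, had a members' median of 0.16, below the 0.20 of all genes. There 84 of 88 members were higher in CFC-14d, against 81.5% of genes. A cluster of this class held 4903 barcodes in CFC-14d but 462 in Random-14d, and its part in the result was not tested.

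**Figure D5:**
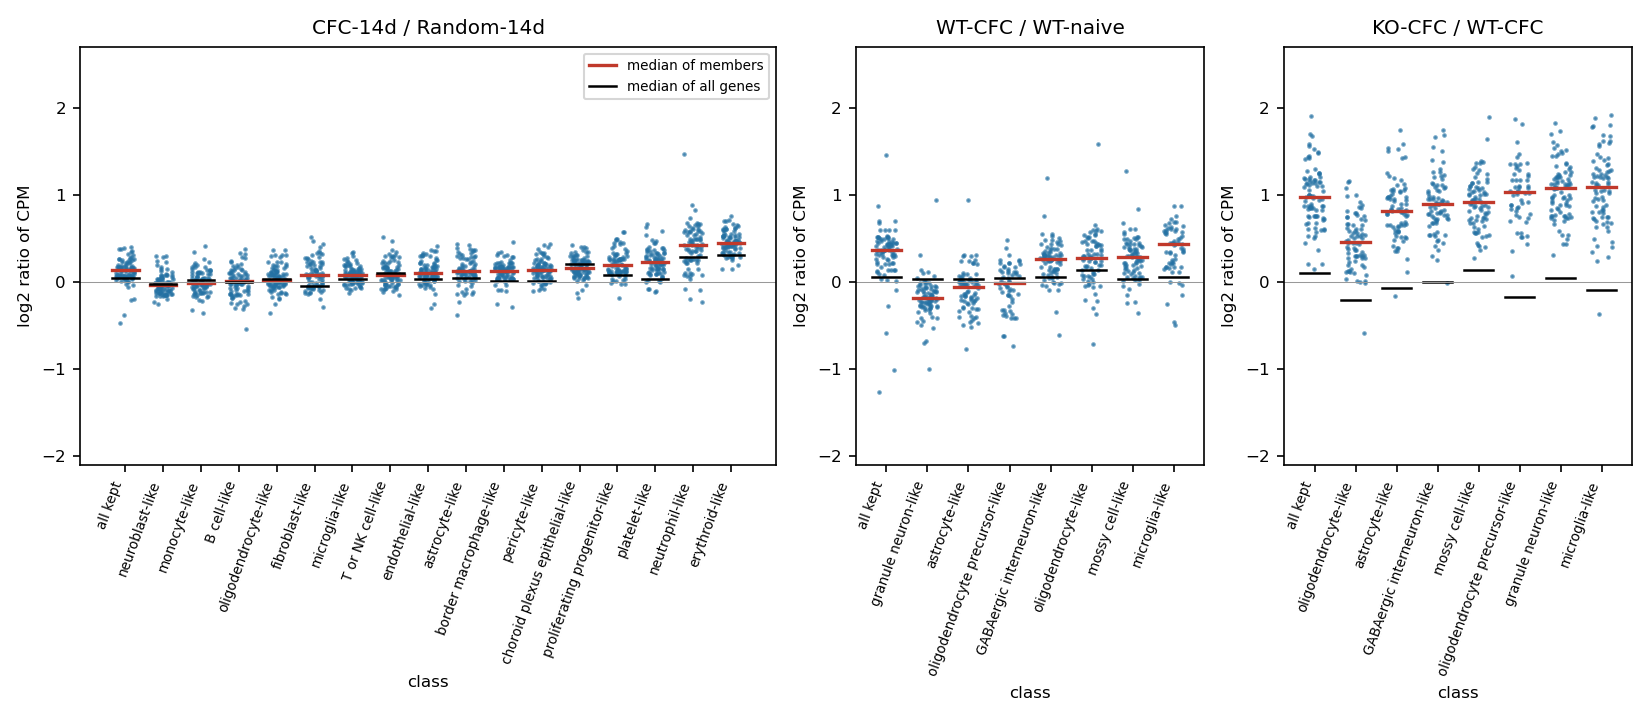
Log2 ratio of CPM (y axis) for tested members (points) by class (x axis) in 3 library comparisons. Red lines give the members' median and black lines the median of all genes. Rpl35rt in granule neuron-like nuclei of the second panel, at -2.45, lies below the drawn range. In the first panel members lie near 0 in most classes, with the highest medians in erythroid-like (0.45) and neutrophil-like (0.43) cells. They vary in sign by class in the second panel and lie mostly above 0 in the third, with oligodendrocyte-like nuclei lowest there.

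Between WT-CFC and WT-naive, members were higher in WT-CFC over all nuclei, with opposite directions in single classes. Of 86 members tested, 81 were higher (59.5% of 22265 genes), 9 were at least 1.5-fold higher (3.67%) and 3 at least 1.5-fold lower (3.25%). The median was 0.37, against 0.05 over all genes. The count of 9 depended on processing: it was 2 in barcodes of at least 1000 UMIs and 500 genes, 5 with scaling by the median ratio over genes, and 64 with each nucleus weighted equally. The median was 0.20, 0.31 and 0.72 under these settings, for which the share of all genes past 1.5-fold is not given here. These counts therefore do not tell the members from other genes. Low-depth nuclei were unequally spread, since 1 unnamed cluster, with a median of 569 to 603 UMIs in these 2 libraries, held 1475 nuclei of WT-naive at 2.25% ribosomal protein UMIs and 4542 of WT-CFC at 2.84%, and its part in the result was not tested.

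Rpl35 stood out. It was at 20.6 (19.4 to 21.8) CPM in WT-naive, 56.5 (54.6 to 58.5) in WT-CFC and 125.3 (121 to 129) in KO-CFC, against 244.6 and 191.3 CPM in the cells of CFC-14d and Random-14d. The log2 ratio of WT-CFC to WT-naive was 1.46, and over the 5 classes with enough UMIs it ran from 0.94 to 1.58. Its copy Rpl35rt was lower, at 9.21 CPM in WT-naive and 3.84 in WT-CFC (-1.26). Copy and parent together were at 29.8, 60.4 and 130.5 CPM in WT-naive, WT-CFC and KO-CFC, so the sum was also higher in WT-CFC, by less than Rpl35 alone.

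Other 60S genes followed Rpl35 at some distance. Rpl10, an X-linked gene of the large subunit, was at 23.9 and 43.8 CPM (0.88) in WT-naive and WT-CFC and higher in WT-CFC in 5 of 5 classes. Rpl38 was at 93.8 and 152.5 CPM (0.70), higher in 6 of 7 classes, and Rpl13a at 7.96 and 13.0 CPM (0.70). Below 0 were the copies Rpl35rt, Rpl37rt (-1.02) and Rps27rt (-0.59), and the 40S gene Rps10, at 52.7 and 43.5 CPM (-0.28), which was higher in WT-CFC in 1 of 7 classes and at -1.002 in granule neuron-like nuclei.

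The classes differed in direction. The median was 0.43 in microglia-like, 0.29 in mossy cell-like, 0.26 in GABAergic interneuron-like and 0.28 in oligodendrocyte-like nuclei, where 5 of 76 members were 1.5-fold higher against 11.4% of genes. It was -0.02 in oligodendrocyte precursor-like and -0.06 in astrocyte-like nuclei. In granule neuron-like nuclei it was -0.18, with 8 of 84 members higher in WT-CFC against 55.9% of genes. At 1500 to 3000 UMIs, the members' share was 1.06% in WT-naive and 0.992% in WT-CFC for granule neuron-like, and 0.951% and 1.02% for astrocyte-like nuclei, so in astrocyte-like nuclei the direction depended on depth. In the same window it was 0.724% and 0.816% for oligodendrocyte precursor-like nuclei and, over 33 and 26 nuclei, 0.799% and 0.774% for GABAergic interneuron-like nuclei, and both directions were opposite to those over all nuclei of the class. With the libraries clustered apart, the median in microglia-like nuclei was -0.12. The difference between classes was not tested.

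The library labelled KO-CFC had higher levels of every member tested than WT-CFC, which also served the comparison above. All 86 were higher (59.1% of 21512 genes), and 77 were at least 1.5-fold higher (19.3%). The median was 0.97, which is 1.96-fold, against 0.11 over all genes. With each nucleus weighted equally, 26 members were at least 1.5-fold higher and the median was 0.42. The share of all genes at least 1.5-fold higher under that weighting is not given here. KO-CFC also had less mitochondrial RNA (0.259% against 0.564% of UMIs), more of the haemoglobin gene Hbb-bs (176 against 16.2 CPM) and of Actb (404 against 248 CPM), and the immunoglobulin and Xist levels given above, whose part in the result was not tested.

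Rplp0, the anchor of the P stalk, and the paralog Rpl36al were among the members with the highest ratios. Rplp0 was at 35.3 CPM in WT-CFC and 114.7 CPM in KO-CFC (1.70) and was higher in KO-CFC in 6 of 6 classes tested. Rpl36al was at 17.6 and 56.5 CPM (1.68) and was higher in 5 of 5. In WT-naive, Rplp0 was at 33.1 and Rpl36al at 13.1 CPM, below WT-CFC in each case. Lowest were Rpl37rt at 0.15, Rps19bp1 at 0.21, Rpl22l1 at 0.21 and Rpl39 at 0.37, and Rpl39 was higher in KO-CFC in 6 of 7 classes.

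The rho between coding length and log2 ratio had the opposite sign to that seen in cells. It was 0.49 across the 77 core genes, with medians of 0.84 for the 25 shortest and 1.13 for the 25 longest, while across 13609 genes it was -0.35. It was above 0 in all 7 classes. Between WT-CFC and WT-naive it was -0.31 across core genes and -0.17 across all genes. The 5735 other genes of 138 to 1257 coding bases had a median of 0.28 in KO-CFC against WT-CFC, below that of the core members.

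By class the median was 1.09 in microglia-like nuclei (70 of 78 members 1.5-fold higher, 17% of genes), 1.08 in granule neuron-like (77 of 83, 17.5%) and 0.81 in astrocyte-like nuclei (59 of 77, 13.8%). It was 1.03 in oligodendrocyte precursor-like, 0.92 in mossy cell-like and 0.89 in GABAergic interneuron-like nuclei. Oligodendrocyte-like nuclei were at 0.46, with 27 of 76 members 1.5-fold higher (7.37%). Nuclei of one class lay in different clusters by library: 1314 granule neuron-like nuclei of WT-CFC were in a cluster at 0.709% ribosomal protein UMIs and 1708 of KO-CFC in another at 1.5%. The same was so for astrocyte-like nuclei (840 at 0.990% and 428 at 1.81%) and for oligodendrocyte-like nuclei (651 at 1.32% and 347 at 1.83%). An unnamed cluster almost all of KO-CFC, with 1176 nuclei, held 0.55%, and 2 unnamed clusters led by immunoglobulin genes held 4.08% and 2.44%.

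Genes that work with the ribosome were read beside the members, from lists chosen with earlier results of these data known. Of 18 translation factors and TOP genes, 17 were higher in WT-CFC than in WT-naive (59.5% of genes), with a median of 0.39, close to the 0.37 of the members. By class the median of this list ran from -0.06 in astrocyte-like to 0.47 in oligodendrocyte-like nuclei, and it was 0.02 in granule neuron-like nuclei. In KO-CFC against WT-CFC, 15 of 18 were higher (59.1% of genes) and 10 at least 1.5-fold (19.3%), with a median of 0.64. Eef1a2 was lowest at -0.40. Of the 78 mitochondrial ribosomal protein genes, 72 were higher in WT-CFC than in WT-naive (median 0.19), though -0.07 was their median in granule neuron-like nuclei, and 71 higher in KO-CFC than in WT-CFC (median 0.52, 29 at least 1.5-fold).

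Over all barcodes, upstream steps of ribosome production showed smaller values than the members. The 23 ribosome biogenesis genes, which process ribosomal RNA and assemble subunits, had medians of 0.10 in CFC-14d against Random-14d, 0.28 between WT-CFC and WT-naive and 0.13 in KO-CFC against WT-CFC. The mTORC1 and translation control genes had 0.06, 0.13 and -0.02, and the 9 host genes of small nucleolar RNAs 0.07, 0.16 and 0.24. In KO-CFC against WT-CFC all of these lay below the members' median of 0.97. Within classes this did not always hold: in granule neuron-like nuclei of WT-CFC against WT-naive the biogenesis genes had a median of 0.15 and the members -0.18, and in T or NK cell-like cells of CFC-14d against Random-14d the values were 0.33 and 0.08.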

How the data were processed

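Counts were the raw UMI counts per gene and barcode that the authors deposited, made, per the file headers, by Cell Ranger 8.0.1. Seurat 5.4.0, GRCm39 and mm39 are named in the submitters' processing notes, and no source used here gives the annotation release. No deposited barcode had under 500 UMIs.

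Barcodes with under 300 genes, over 20% (cells) or 5% (nuclei) mitochondrial UMIs, or in the top 8% of doublet scores of their library were removed. Cells and nuclei were clustered apart (2000 variable genes without ribosomal protein genes by scanpy 1.11.5, 30 components, 15 neighbours, edges weighted by shared neighbours, Leiden at resolution 1 in igraph 0.11.9). Clusters were named from marker lists. The scoring limits for a name were set after seeing the data: at least 3 markers 2-fold over the median of the other clusters, a mean marker score of at least 1 and of at least 55% of the best cluster of that name, and no rival list close behind. A close rival was allowed where every marker of the list passed and the cluster's leading genes held several of that list and none of another. UMIs were summed per class and library, with at least 100 barcodes, and compared as log2 ratios of CPM after adding 0.5 counts, for genes with at least 100 counts over both libraries. The numerical steps were tested on simulated data. Start sites and coding lengths came from RefSeq and GENCODE tables of GRCm38, not the build of the files, and were joined by symbol. Coding lengths matched 89 of 97 rows.

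The members and lists were chosen with earlier results of these data known. Named genes were the stated groups with the P stalk, the paralog pairs, the 5 highest and lowest members by level and in nuclei against cells, the 4 highest and lowest ratios of each library comparison, and the 8 members of widest spread over classes. A few of these are not reported here. Others that are named (the copies Rpl35rt, Rpl37rt and Rps27rt across libraries, members higher in every class, Rps10 in cells, and the start site windows) were chosen after their values were seen, as was the minimum of 20 counts in the lowest class for the spread.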

Additional observations from a re-analysis of the deposited data

Results flagged for a closer look

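In WT-CFC against WT-naive, the members' median log2 ratio had opposite signs in different classes of nuclei: it was 0.28 in oligodendrocyte-like nuclei and -0.18 in granule neuron-like nuclei. With 1 library per group, the difference was not tested.

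Rows with -ps in the symbol, pseudogene rows that the members do not include, also carried UMIs. There were 48417 in CFC-14d and 45781 in Random-14d, and in the nuclei of WT-naive, WT-CFC and KO-CFC there were 6150, 5443 and 4538. Per 100 UMIs on members this was 0.756 and 0.821 in the cell libraries and 2.34, 1.55 and 1.17 in the nuclear ones. These library totals are above the 3 UMIs that a count of 0 allows. Of the 322 rows, 220 had at least 1 UMI over all libraries together, and some of these had only 1 to 3. Reads of a parent gene that fall on its pseudogene cannot be told apart from pseudogene transcripts in these counts.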

How the results depend on the processing

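No paired analysis was possible because each group had 1 library, so no replicate could be left out either. Counting error was small beside the differences between libraries over all barcodes, but in single classes, such as monocyte-like cells, the counting interval of the difference could hold 0. No error between animals could be had. Members at least 1.5-fold higher in WT-CFC than in WT-naive were 9, and 2 in barcodes of at least 1000 UMIs and 500 genes, 64 with each barcode weighted equally and 5 with scaling by the median ratio over genes. In KO-CFC against WT-CFC they were 77, and 26 with each barcode weighted equally. The cause was not tested, and the shares of all genes given above belong to the counts of 9 and 77 only.

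Over classes and libraries, the median share of ribosomal protein UMIs in cells was 6.46%. It was 6.11% with 1000 UMIs and 500 genes, 6.74% with 15% removed by doublet score, 6.28% with none removed, 6.551% at Leiden resolution 2, 6.59% with ribosomal protein genes in the clustering, 6.55% with libraries clustered apart, 6.86% with barcodes weighted equally and 6.39% for core members. In nuclei it was 0.992%, and 0.922% with the lower mitochondrial limits of 10% and 2%, 0.836% with none removed by doublet score, 0.858% with libraries clustered apart, 1.046% with barcodes weighted equally and 0.973% for core members. All deposited barcodes gave library shares of 5.96% for CFC-14d and 5.26% for Random-14d, and of 0.505%, 0.633% and 1.27% for WT-naive, WT-CFC and KO-CFC. Over the kept barcodes, with -ps rows added to the members, the library shares were 6.06%, 5.48%, 0.491%, 0.639% and 1.26% in the same order. The order of libraries within each part was kept.

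Some class medians changed sign under some settings, also in microglia-like nuclei, whose median was 0.43. For CFC-14d against Random-14d, T or NK cell-like cells were at -0.0151 with the mitochondrial limits, -0.021 with 15% removed by doublet score, -0.0089 at resolution 2, -0.0171 with equal weights and -0.02 with median scaling. Monocyte-like cells were at 0.002, 0.0236 and 0.0429 with the first 3 of these settings, 0.017 with no barcode removed, 0.0107 with ribosomal protein genes in the clustering, 0.0013 for core members, 0.0106 with 20 counts and 0.0203 with no minimum. B cell-like cells were at -0.015 with 15% removed, -0.0514 scaled without ribosomal protein, mitochondrial and haemoglobin genes, -0.0008 with 20 counts and -0.0124 with no minimum. Proliferating progenitor-like cells were at -0.0973, -0.0221 and -0.0685 with 1000 UMIs, the mitochondrial limits and libraries clustered apart, and astrocyte-like cells at -0.0268 and -0.0114 with the first 2 of these. Oligodendrocyte-like cells were at -0.0072 with libraries clustered apart and -0.0107 with median scaling, which put choroid plexus epithelial-like cells at -0.0373.

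For WT-CFC against WT-naive, oligodendrocyte precursor-like nuclei were at 0.0511, 0.0198 and 0.0977 with 1000 UMIs, 15% removed and none removed, 0.0056 with ribosomal protein genes in the clustering and 0.0164 with libraries clustered apart. The last setting put astrocyte-like nuclei at 0.0011 and microglia-like nuclei at -0.1176. In all, 10 of 33 class medians changed sign at least once, 32 times over all settings, and the cause was not tested. Medians over all barcodes kept their sign under all 13 settings in each comparison: they ran from 0.08 to 0.14 for CFC-14d against Random-14d, from 0.20 to 0.72 for WT-CFC against WT-naive and from 0.42 to 1.17 for KO-CFC against WT-CFC. The window of 1500 to 3000 UMIs was chosen after seeing the data.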

Other observations

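Of the -ps rows, 24 had at least 100 UMIs over WT-naive and WT-CFC. Their median log2 ratio was -0.27, with 19 of 24 lower in WT-CFC, where 59.5% of all genes were higher. Of the 24 rows, 4 were at least 1.5-fold lower (3.25% of genes) and 3 at least 1.5-fold higher (3.67%). The members had a median of 0.37 in the same comparison.

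Rpl39l, which is best known from the testis, had 116 and 146 UMIs in cells of CFC-14d and Random-14d, of which 70 and 83 were in microglia-like cells. Rpl3l, known from striated muscle, reached 39.0 CPM (28 UMIs) and 36.6 CPM (17 UMIs) in monocyte-like cells of CFC-14d and Random-14d, while it was under 1 CPM over each library.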
